A study of Rattus norvegicus with 6 samples.

Results

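The miRNAs described here are matured from introns of genes of energy and lipid metabolism: rno-miR-103-3p and rno-miR-107-3p from the pantothenate kinase genes, rno-miR-378a-3p and rno-miR-378a-5p from Ppargc1b, and rno-miR-33-5p from Srebf2. The species prefix rno- is left out below. They were chosen by name, 5 in all, with earlier results of these data known. Of them, 4 are rows of the deposited table of 493 mature miRNAs in rat peri-infarct cortex. No row of the table carries the name miR-33-5p, so it was not analysed here. Its partner arm, miR-33-3p, was listed with 10 reads in MCAO replicate 1 and with 0 in the other libraries, and it did not pass the filter on low counts. A listed 0 covers anything below 10 reads in this table, since 10 is the smallest count above 0, and such a value reaches up to 0.858 counts per 1000000 reads (CPM) in the smallest library.

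Small RNA of 6 rats was sequenced, 3 after middle cerebral artery occlusion, a model of stroke (MCAO group), and 3 after the same occlusion followed by repetitive transcranial magnetic stimulation (MCAO + rTMS group), with 1 library per rat. All were male Sprague-Dawley rats whose right middle cerebral artery was closed for 90 min and then reopened, and MCAO tissue was taken at day 7. The MCAO + rTMS rats also received 10 Hz rTMS, magnetic pulses from a coil over the injured side of the head, on 7 days. A length of 10 min per day is from the labels, while the methods describe short trains of pulses with longer rests and state no daily length. Per the methods, stimulation of these rats began on the day after reperfusion. The labels give no day of collection for these rats, a supplement of the study places the compared tissue at 7 days after the operation without naming a group, no age is given, and the series holds no sham or untreated group, so each change below is that of stimulated relative to unstimulated injured cortex.

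A miRNA is cut from a hairpin precursor whose arms, 5p and 3p, can each give a mature strand, and bases 2 to 8 of that strand, the seed, direct it to messenger RNAs. Pantothenate kinases start the synthesis of coenzyme A, and miR-103 and miR-107 are known as regulators of insulin signalling and of Dicer, the enzyme that cuts precursors. Ppargc1b encodes PGC-1β, a coactivator of genes for mitochondria and fat oxidation, and miR-378a is known as its intronic partner in the control of mitochondrial metabolism, with high levels in muscle. Srebf2 encodes the sterol sensor SREBP-2, and miR-33 is known to lower the cholesterol exporter ABCA1.

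The mature sequences show which reads could be mistaken for each other. They are RefSeq sequences of the GRCr8 build, written 5′ to 3′ with the seed in capitals.
miR-103-3p: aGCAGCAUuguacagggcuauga
miR-107-3p: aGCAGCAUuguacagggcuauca
miR-378a-3p: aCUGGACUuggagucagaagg
miR-378a-5p: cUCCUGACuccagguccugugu
miR-103-3p and miR-107-3p have the same seed and differ by G22C, which names the base of miR-103-3p, the position from the 5′ end (where the first base is 1) and the base of miR-107-3p. Their first 21 bases are identical, so a read that stops there cannot be told apart between them, and the rule by which the authors counted such reads is not given in the sources used here. No other row of the table with a RefSeq mature sequence, of 451 such rows, shared a seed with any of the 4 members. The row miR-378b had no such sequence, so it was not compared with miR-378a-3p. The arms of miR-378a carry unrelated seeds.

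Of miR-103-3p, even a full-length read does not show its gene. RefSeq places Mir103a1 inside Pank3, Mir103a2 inside Pank2 and Mir107 inside Pank1, each on the strand of its host, and Mir378 inside Ppargc1b. The hairpins are at chr10:20748474-20748559 on the plus strand for Mir103a1, chr3:138963227-138963312 on the plus strand for Mir103a2, and chr1:241750418-241750504 on the minus strand for Mir107, in GRCr8. The counts carry no coordinates, and the submitters' processing notes name the rn6 build. The stretch of each hairpin around the 3p strand is shown, with the mature strand in capitals.
Mir103a1: ucaAGCAGCAUUGUACAGGGCUAUGAaggc
Mir103a2: ucaAGCAGCAUUGUACAGGGCUAUGAaaga
Mir107: ucaAGCAGCAUUGUACAGGGCUAUCAaagc
The mature strand is the same in both miR-103 genes, and the bases just behind it differ. A read of miR-103-3p can therefore come from the Pank2 or the Pank3 locus. Since reads that stop before position 22 fit miR-103-3p and miR-107-3p alike, neither count can be assigned to its host genes alone.

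Total counts lay between 10492610 and 15411620 per library. Levels are in CPM, after TMM scaling of the totals, which keeps the most abundant miRNAs from setting the scale. Differences were tested by the quasi-likelihood method of edgeR in the 452 miRNAs left by its filter, and p was adjusted after Benjamini and Hochberg. The factors lay between 1.16 and 1.39 in the MCAO group and between 0.695 and 0.864 in stimulated rats, so the scaling itself differed by group. The background was high: 55.3% of the tested miRNAs were called, with an adjusted p under 0.05, and 66.8% had no overlap between groups. The TMM fit called 123 miRNAs higher and 127 lower, against 85 and 172 with upper-quartile factors and 55 and 208 with library totals only, and the median log2 fold change of all tested miRNAs was -0.21, -0.50 and -0.80 in these fits. Of the brain miRNAs, miR-128-3p stood at 212040 ± 34859 CPM, miR-9a-5p at 167618 ± 18615 CPM and miR-124-3p at 5318 ± 723 CPM in the MCAO group (mean ± SD, 3 rats each).

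The 4 members moved apart. miR-378a-3p rose 2.44-fold and miR-107-3p fell 2.68-fold in the MCAO + rTMS group. miR-378a-5p was 1.55-fold lower with an adjusted p just under the threshold, and miR-103-3p was 1.32-fold lower and did not pass. Of the 4, 3 were called, 1 higher and 2 lower, against a background of 27.2% called higher and 28.1% called lower among all tested miRNAs. Stimulated and MCAO rats were fully separated in each of the 4, with a background of 30.8% of miRNAs without overlap on the higher side and 36.1% on the lower side. In bulk tissue, fewer cells that hold a miRNA and less of it per cell cannot be told apart.

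**Figure D1:**
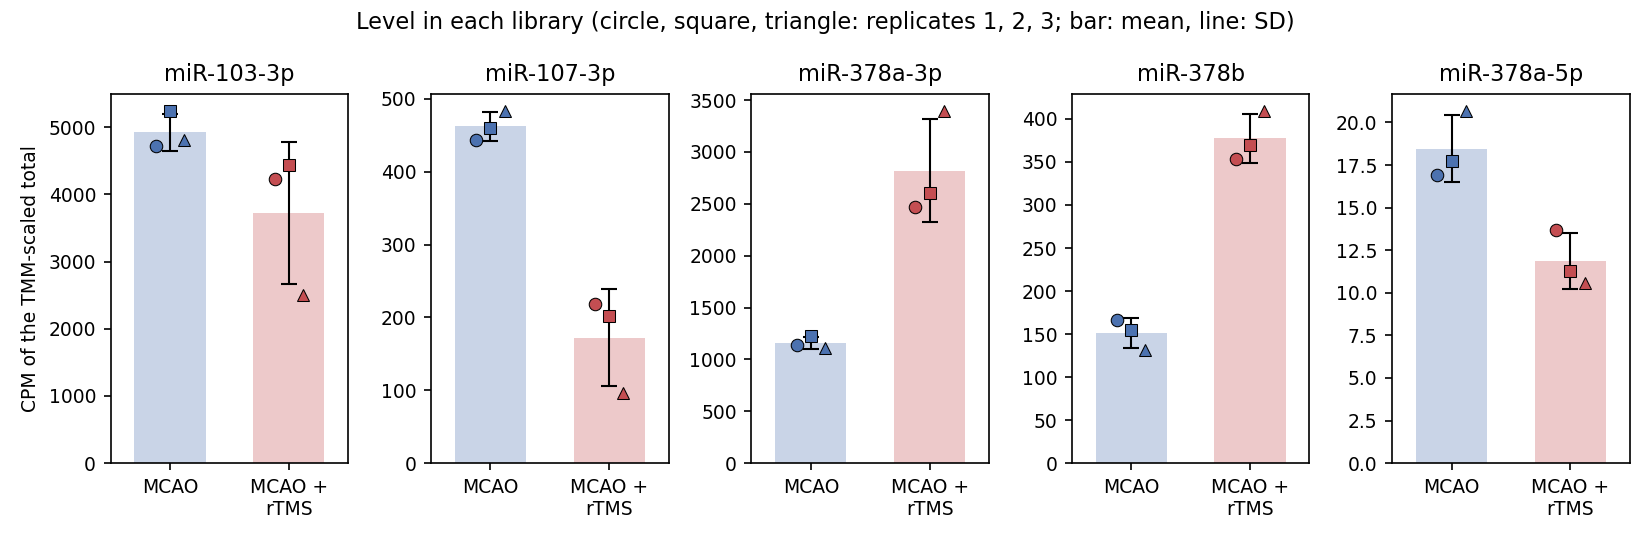
Level of the 4 members and of miR-378b in each library, in CPM of the TMM-scaled total on axes that start at 0, with circles, squares and triangles for replicates 1, 2 and 3, bars for the group mean and lines for the SD (n = 3). miR-378a-3p and miR-378b lie higher in all 3 MCAO + rTMS libraries, the other 3 miRNAs lie lower, and MCAO + rTMS replicate 3 is the lowest library for miR-103-3p and miR-107-3p.

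miR-103-3p was the most abundant member. By rat, in the order of replicates 1, 2 and 3 used here for every miRNA, it stood at 4726, 5241 and 4812 CPM across MCAO rats and 4236, 4436 and 2502 across stimulated rats. The first 2 stimulated rats lay close below the MCAO rats, and the third lay well below all others. The group levels were 4926 ± 276 CPM versus 3724 ± 1063 CPM (mean ± SD, 3 rats each), and miR-103-3p ranked 24 among the 452 tested miRNAs by mean CPM in the MCAO group and 32 in stimulated rats. Its log2 fold change came to -0.40 ± 0.24 (standard error; adjusted p = 0.186 in edgeR's quasi-likelihood test). Without MCAO + rTMS replicate 3 it was -0.16 (adjusted p = 0.303 in the same test), close to the median of all miRNAs in that fit, -0.24. The call depended on the scaling: with upper-quartile factors it stood at -0.70 (adjusted p = 0.031) and with library totals only -0.997 (adjusted p = 0.022), in the same edgeR test. Relative to the median of all tested miRNAs, miR-103-3p was at -0.20 on the log2 scale in each of these 3 scalings.

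miR-107-3p, whose gene lies in Pank1, fell, and it was lower in each stimulated rat than in any MCAO rat. It was found at 444, 459 and 483 CPM across MCAO rats and 218, 203 and 96.0 across stimulated rats. The MCAO libraries were tightly grouped, and MCAO + rTMS replicate 3 was again the lowest. The group levels were 462 ± 19.9 CPM versus 172 ± 66.4 CPM (mean ± SD, 3 rats each), and its log2 fold change came to -1.42 ± 0.31 (standard error; adjusted p = 0.0077 in edgeR's quasi-likelihood test). Without MCAO + rTMS replicate 3 the fall was still called, at -1.11 (adjusted p = 0.0019 by edgeR). All 17 alternative fits called it lower, with log2 fold changes from -2.01 to -1.11. The authors' selection of 73 miRNAs holds miR-107-3p and miR-378a-3p and neither of the other members. Its criteria in the paper include a minimum fold change as well as a p-value limit. miR-378b, which is not a member, is also in it.

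The balance within the pair of miR-103 and miR-107 was measured as a ratio inside each library, which no scaling can move. Reads that stop before position 22 fit both strands, so the ratio also depends on how such reads were counted, which is not known. For every 100 reads of miR-103-3p there were 9.39, 8.77 and 10.0 reads of miR-107-3p across MCAO rats and 5.15, 4.57 and 3.84 across stimulated rats. Each stimulated rat lay below each MCAO rat, and the ranges within the groups were narrow beside the distance between them. miR-107-3p made up 8.59% ± 0.534 of the reads of the pair in the MCAO group and 4.32% ± 0.601 in stimulated rats (mean ± SD, 3 rats each), a difference in the log2 ratio of -1.07, or 2.09-fold. The exact two-sided permutation test gave p = 0.1, the smallest value that 3 rats against 3 can give. With each library left out in turn the difference in the log2 ratio stayed between -1.16 and -0.95. Since miR-103-3p held most of the reads, the summed level of both, which share a seed, was 5169, 5701 and 5295 CPM in the MCAO libraries and 4454, 4638 and 2598 CPM in the MCAO + rTMS libraries.

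miR-103 and miR-107 are counted with miR-15, miR-16 and their relatives in a wider group that shares the letters AGCAGC near the 5′ end. Of the rows with a RefSeq mature sequence, 8 held AGCAGC within bases 1 to 8, and all 8 were tested. Among these, 6 fell, 0 rose and 2 were not called, with a median log2 fold change of -1.49, against -0.21 over all tested miRNAs. Without miR-103-3p and miR-107-3p, 5 of 6 fell, which is 83.3% beside 28.1% called lower among all tested. Those 5 were miR-497-5p (log2 fold change -1.96), miR-322-5p (-1.68), miR-195-5p (-1.60), miR-16-5p (-1.55) and miR-15b-5p (-1.03), and miR-503-5p had a log2 fold change of 0.18 (adjusted p = 0.452 in edgeR's quasi-likelihood test). The last was negative with upper-quartile factors (-0.11) and with library totals only (-0.44), and miR-15b-5p lost its call in 6 of the 17 alternatives. miR-103-3p was far above the rest of this group in abundance, since the other 6 summed to between 276 and 358 CPM in the MCAO group and between 94.2 and 139 CPM in stimulated rats. RefSeq places the genes of miR-16-5p and miR-15b-5p inside the same host, Smc4, so the members of this group are not all separate cases. This group was looked at after the values of its members had been seen.

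**Figure D2:**
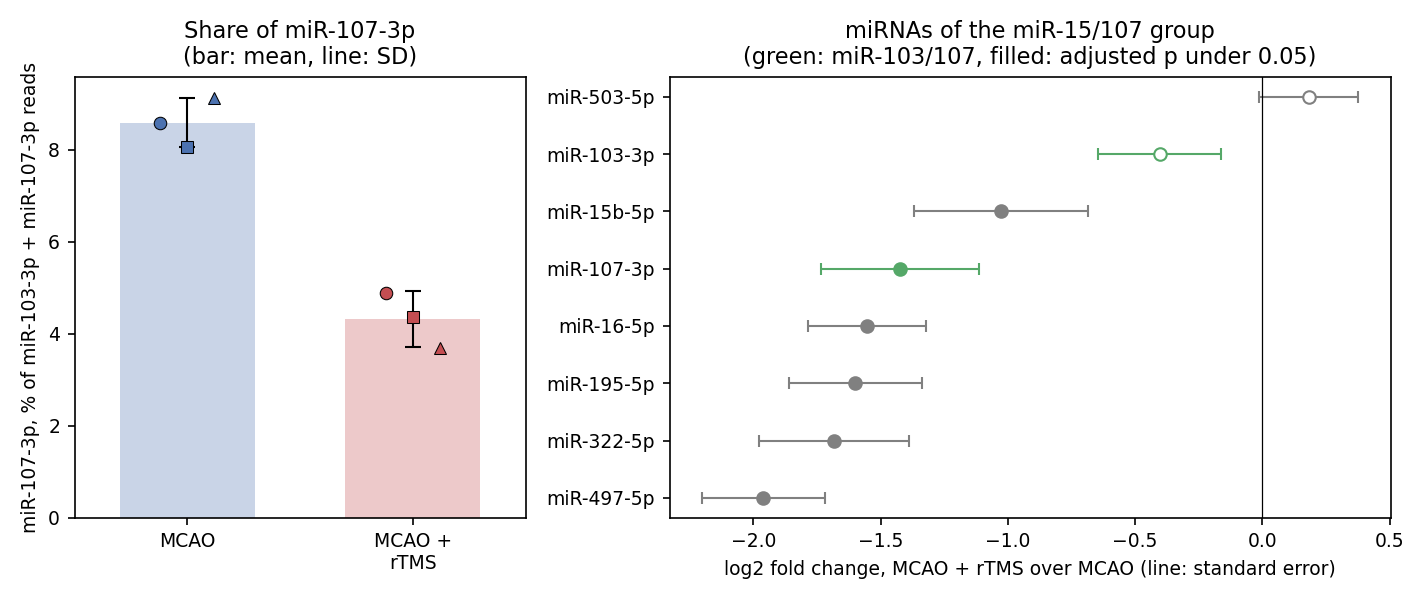
Left, the percentage of miR-107-3p among the reads of miR-103-3p and miR-107-3p in each library (bars, group mean; lines, SD; n = 3), with 8.59% in the MCAO group and 4.32% in stimulated rats. Right, the log2 fold change of each of the 8 miRNAs with AGCAGC in bases 1 to 8 (lines, standard error), where filled points passed an adjusted p of 0.05 and only miR-503-5p lies above 0.

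miR-378a-3p, the main strand from Ppargc1b, rose, and it was higher in each stimulated rat than in any MCAO rat. It was found at 1141, 1223 and 1107 CPM across MCAO rats and 2465, 2604 and 3393 across stimulated rats. The lowest stimulated library was well above the highest MCAO library, and MCAO + rTMS replicate 3, lowest for the pair of miR-103 and miR-107, was here the highest. This library also had the lowest TMM factor, 0.695. On plain library totals the stimulated rats lay closer together, at 2126, 2250 and 2360 CPM. The group levels were 1157 ± 59.6 CPM versus 2821 ± 501 CPM (mean ± SD, 3 rats each), and its log2 fold change came to 1.29 ± 0.19 (standard error; adjusted p = 0.0017 in edgeR's quasi-likelihood test). It ranked 57 among the 452 tested miRNAs from the largest increase down. All 17 alternative fits called it higher, with log2 fold changes from 0.64 with library totals only to 1.38. Relative to the median of all tested miRNAs its log2 fold change was 1.49 after TMM scaling and 1.44 on plain library totals.

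miR-378b, listed beside it under a related name, was higher as well. RefSeq lists a gene of its own for it, Mir378b, on chromosome 5 of GRCr8. It was found at 166, 154 and 132 CPM across MCAO rats and 354, 370 and 409 across stimulated rats, again without overlap. Its log2 fold change came to 1.32 ± 0.18 (standard error; adjusted p = 0.0012 in edgeR's quasi-likelihood test). There were between 6.86 and 8.39 reads of miR-378a-3p for each read of miR-378b in the MCAO group and between 6.97 and 8.30 in stimulated rats. The ranges overlapped almost entirely, with a difference in the log2 ratio of -0.055 and p = 0.9 in the exact two-sided permutation test of 3 against 3. No sequence of miR-378b was compared with that of miR-378a-3p, and whether some reads enter both rows was not tested.

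miR-378a-5p, the minor strand of the same hairpin, went the other way. It was found at 16.9, 17.7 and 20.7 CPM across MCAO rats and 13.7, 11.3 and 10.6 across stimulated rats. The groups did not overlap, but the gap between them was small beside that of the other strand, and the mean count over the 6 libraries was only 206. The group levels were 18.4 ± 1.96 CPM versus 11.9 ± 1.62 CPM (mean ± SD, 3 rats each), and its log2 fold change came to -0.64 ± 0.20 (standard error; adjusted p = 0.030 in edgeR's quasi-likelihood test). The call was lost in 8 of the 17 alternative fits and in 5 of the 6 that left out 1 library, where only the fit without MCAO + rTMS replicate 1 kept it. The direction was the same in all 17, with log2 fold changes from -1.26 to -0.52.

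**Figure D3:**
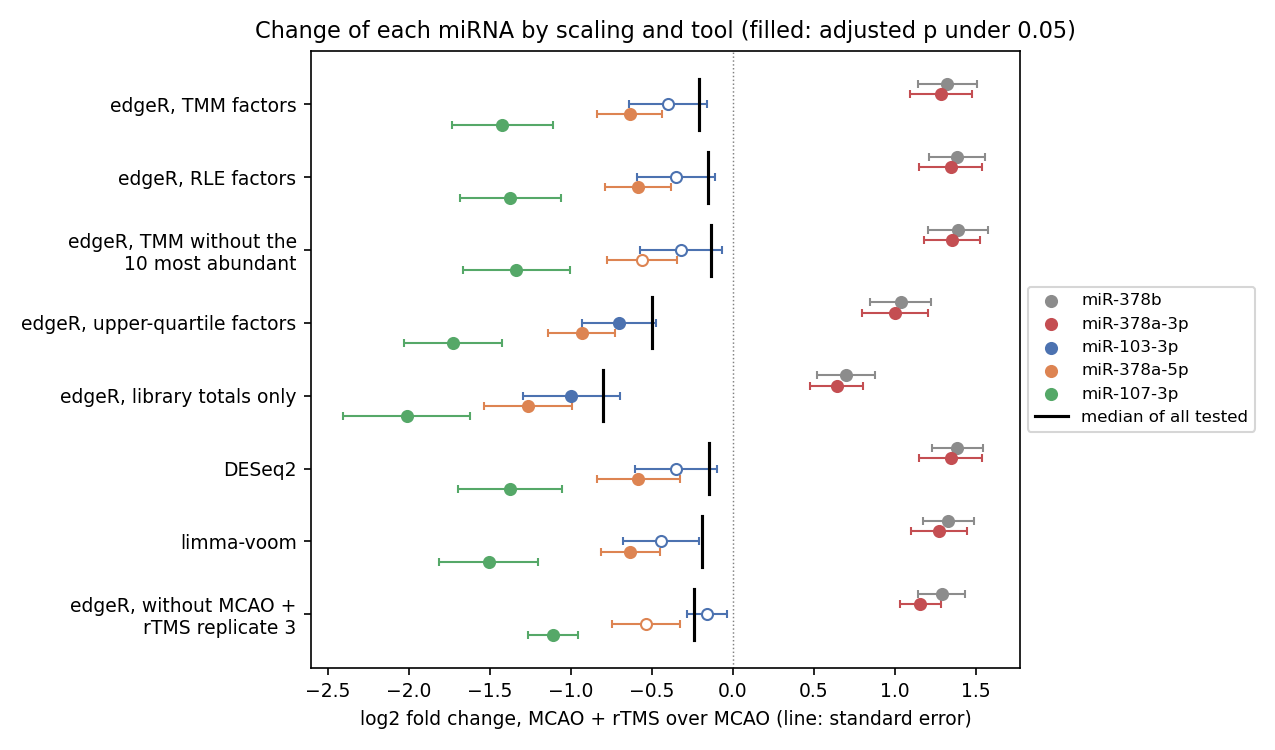
Log2 fold change of the 4 members and miR-378b between the MCAO + rTMS and MCAO groups under 8 combinations of scaling, tool and libraries (points; lines, standard error), with filled points for an adjusted p under 0.05 and a black bar for the median of all tested miRNAs. miR-107-3p and miR-378a-3p stay filled throughout, while miR-103-3p is filled only with upper-quartile factors and library totals only, the fits in which the median moves furthest from 0.

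The arms of miR-378a were therefore compared within each library. For each read of miR-378a-5p there were 67.4, 68.9 and 53.5 reads of miR-378a-3p across MCAO rats and 180, 230 and 320 across stimulated rats. The 3p strand dominated in every rat, and its excess was larger in each stimulated rat than in any MCAO rat. The 5p strand took 1.58% ± 0.224 of the reads of the hairpin in the MCAO group and 0.432% ± 0.121 in stimulated rats (mean ± SD, 3 rats each). At the lowest count, 109 reads in MCAO + rTMS replicate 3, its share was 0.311% with a 95% Wilson interval from 0.258% to 0.375%, and in MCAO replicate 2, the MCAO library with the smallest share, it was 1.43% with an interval from 1.25% to 1.63%. These intervals cover counting error only.

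To set this beside other hairpins, the log2 ratio of 3p to 5p reads was fitted with limma over the 138 hairpins with both arms tested. The ratio of miR-378a rose by 1.91 on the log2 scale (standard error 0.29, adjusted p = 0.0019 over the 138 hairpins in limma's test). It passed an adjusted p of 0.05 in each of the 6 limma fits that left out 1 library, with values from 1.69 to 2.11, the lowest of them without MCAO + rTMS replicate 3. The background was high here too, as 42.0% of the hairpins had an adjusted p under 0.05, 19.6% towards 3p and 22.5% towards 5p, and the groups did not overlap in 52.2%. The median size of the change over all hairpins was 1.30, and miR-378a ranked 23 from the largest shift towards 3p. By the 3p to 5p ratio itself it ranked 21 among the 138 in the MCAO group and 10 in stimulated rats. Both arms were called in the edgeR test in 45 hairpins, in opposite directions in 21 of these, and miR-378a was among the 14 with 3p higher and 5p lower. With 0.5 added to each count, the called hairpins furthest from 0 were miR-300 and miR-106b towards 3p and miR-337 and miR-410 towards 5p. An arm of miR-300 and of miR-337 was listed at 0 in all MCAO + rTMS libraries and the 5p arm of miR-410 in MCAO replicate 1, so the places and sizes of these 3 rest on the added 0.5 and no size is given. The ratio of miR-106b rose by 3.99 on the log2 scale (adjusted p = 0.00017 in limma's test), with no arm listed at 0.

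**Figure D4:**
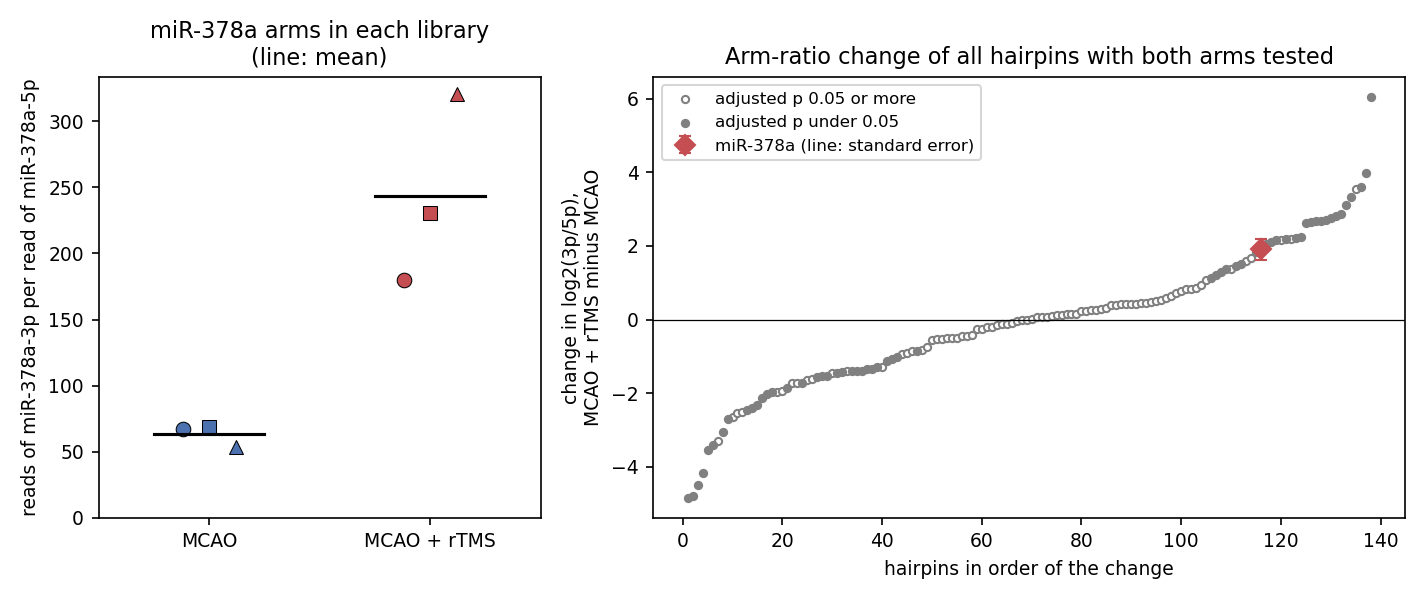
Left, reads of miR-378a-3p per read of miR-378a-5p in each library (lines, group mean), between 53.5 and 68.9 in the MCAO group and between 180 and 320 in stimulated rats. Right, the change in log2(3p/5p) of all 138 hairpins in order, with filled points for an adjusted p under 0.05 and miR-378a marked at 1.91 (line, standard error), in 23rd place from the top.

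No second arm of the miR-103 or miR-107 hairpins was found under the names miR-103-1-5p, miR-103-2-5p or miR-107-5p, so an arm ratio could be formed for miR-378a alone.

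Across the 6 libraries the members followed other miRNAs closely, given here as Pearson's r of log2(CPM + 1) with 285 other miRNAs of a mean count above 200, over 6 libraries that fall into 2 groups and share their scaling. For miR-378a-3p the highest values were 0.9998 for miR-1224, 0.998 for miR-127-3p and 0.998 for miR-128-2-5p, with log2 fold changes of 2.31, 1.28 and 1.96. The highest for miR-107-3p were 0.996 for miR-186-5p, 0.996 for miR-93-5p and 0.994 for miR-339-5p, which were also lowest in MCAO + rTMS replicate 3. miR-103-3p was most like miR-3085, miR-146a-5p and miR-23a-3p, at 0.986, 0.972 and 0.966, with log2 fold changes of -0.80, -0.58 and -0.84 that did not pass the edgeR test (adjusted p = 0.0945, 0.0779 and 0.0581). They passed in 2, 2 and 7 of the 17 alternatives, and without MCAO + rTMS replicate 3 the log2 fold changes were -0.44, -0.34 and -0.51. miR-378a-5p was most like miR-455-3p, miR-487b-3p and miR-410-3p, at 0.965, 0.962 and 0.961. The lists for the 4 members held 12 different miRNAs.

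Other miRNAs known for cholesterol, lipid or insulin regulation were taken as a list of 27, of which 24 were tested. Among these, 3 rose, 8 fell and the rest did not pass, so 45.8% were called beside 55.3% of all tested miRNAs, and the median log2 fold change was -0.36 beside -0.21. The 6 most abundant differed among themselves. miR-29a-3p, known for its action on collagen and insulin pathway transcripts, fell from 7674 ± 364 to 3740 ± 399 CPM (mean ± SD, 3 rats each), a log2 fold change of -1.04 (adjusted p = 0.0021 in edgeR's quasi-likelihood test). miR-143-3p rose from 2452 ± 815 to 5131 ± 1197 CPM (mean ± SD, 3 rats each), a log2 fold change of 1.07 (adjusted p = 0.020 in the same edgeR test), and lost its call in 5 of the 17 alternatives. The other 4 did not pass. The log2 fold change of miR-148a-3p was 1.14 (edgeR adjusted p = 0.052), it passed in 5 of the 17 alternatives, and it ran from 0.69 to 1.44 with 1 library left out. That of miR-27b-3p was 0.54, with -0.035 on library totals only and a call at 0.83 without MCAO + rTMS replicate 3. That of miR-26a-5p was -0.32, and it passed in 2 of the 17. That of miR-30c-5p was -0.33, or -0.016 without MCAO + rTMS replicate 3, and it passed in 0 of the 17. Of the 24, 2 are also on the list of myeloid miRNAs and 1 on that for liver.

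Markers of cell types and tissues that the sample could hold are given beside the background of 27.2% called higher and 28.1% called lower. In either direction, 50.0% of the neuronal, oligodendrocyte and endothelial lists were called, near the 55.3% of all tested miRNAs. The share was 80.0% for the myeloid list and 100% for the muscle and red blood cell lists, and each list is small. The part of these markers in the changes of the members was not tested. The 5 muscle miRNAs, of interest because miR-378a is abundant in muscle, summed to between 108 and 170 CPM in the MCAO libraries and between 254 and 406 CPM in the MCAO + rTMS libraries, and 2 of them rose while 3 fell. The 5 myeloid miRNAs summed to between 695 and 718 CPM and between 312 and 549 CPM, with 4 lower, and the 2 tested miRNAs of red blood cells to between 141 and 302 CPM and between 513 and 637 CPM, with 1 higher and 1 lower. The 2 of endothelium summed to between 2993 and 6298 CPM and between 2017 and 3293 CPM, with 1 lower, and the 2 tested of oligodendrocytes to between 571 and 786 CPM and between 963 and 2106 CPM, with 1 higher. The 6 neuronal miRNAs summed to between 323564 and 420409 CPM and between 423236 and 610352 CPM, with 1 higher and 2 lower. These sums are on the TMM scale, on which the total itself differed by group. All 452 tested miRNAs summed to between 717580 and 865685 CPM in the MCAO group. In the MCAO + rTMS group they summed to between 1156962 and 1437904 CPM. A higher sum of a list is therefore not by itself a larger share of the reads. The liver miRNA miR-122-5p lay between 2.48 and 29.6 CPM in the MCAO group and between 10.2 and 11.1 CPM in stimulated rats. None of the tested markers was at 0 in all libraries of a group, while miR-219a-5p did not pass the filter and miR-144-3p had no row.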

How the data were processed

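Small RNA libraries of 3 MCAO and 3 MCAO + rTMS rats were grouped and numbered by their titles. The authors deposited raw read counts per mature miRNA, without normalization, for 493 miRNAs, and the same counts for their selection of 73. The submitters' processing notes name bcl2fastq, BWA, DESeq2 and rn6, and the counting of shared reads is not given in the sources used here. Rows were filtered with filterByExpr, scaled with TMM factors and tested in R 4.3.3 with edgeR 4.0.16 (quasi-likelihood, groups only, Benjamini-Hochberg over 452 miRNAs). The standard error is the log2 fold change divided by the square root of F. Arm ratios, with 0.5 added to each count, were fitted with limma 3.58.1, and ratios of single pairs were compared by exact permutation in scipy 1.17.1. The scripts were tested on simulated data.

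Alternatives were other scalings, filters and tools (DESeq2 1.42.0, limma-voom, an equal-variance two-sample test), listed zeros set to 9, a block for replicate number, and leaving out each library. Named miRNAs are the members, the other arms of their hairpins, rows sharing their seed, miR-378b, the 3 most alike by r, the 2 largest arm-ratio shifts each way, and the 6 most abundant of each list; those with AGCAGC and the cell markers were added. Members and lists were chosen with earlier results of these data known. A host gene is a protein-coding RefSeq gene that encloses the miRNA gene on its strand in GRCr8; 414 of the 452 tested miRNAs matched a RefSeq mature sequence. The methods give 3 rats per group and the labels only number the libraries, and p-values measure the spread between these libraries.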

Additional observations from a re-analysis of the deposited data

How the results depend on the processing

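The count of called miRNAs, 250, moved by less than 1.5 times in all 17 alternatives and ranged from 179 to 253 with 1 library left out. miR-107-3p and miR-378a-3p kept their direction and call in all 17. miR-103-3p passed the threshold only with upper-quartile factors (log2 fold change -0.70) and library totals only (-0.997), the fits that moved the median of all miRNAs to -0.50 and -0.80. miR-378a-5p lost its call with TMM factors made without the 10 most abundant miRNAs (-0.56), with listed zeros set to 9 (-0.54) and with the replicate block (-0.64), and its values with 1 library left out ran from -0.75 to -0.52. The cause was not tested. The change of the miR-378a arm ratio, 1.91, was also 1.91 in the exact permutation test, where p = 0.1 is the smallest that 3 against 3 can give. The miR-107 to miR-103 ratio kept its direction in 8 of 8 alternatives. Since the groups did not overlap in this ratio, leaving out a library could not have changed its direction.

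Deviations from the group means correlated at 0.20, -0.12 and -0.11 between same-numbered libraries 1, 2 and 3. Between differently numbered libraries the correlations lay between -0.28 and 0.30. With 3 libraries per group this cannot show whether the numbers pair the rats, and the labels name no pairing. With the replicate block 180 miRNAs were called, and the arm ratio (1.91, adjusted p = 0.016 in limma's test) and the log2 fold changes of miR-107-3p (-1.51) and miR-378a-3p (1.27) kept their calls.

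Of 510 values of the 30 other named miRNAs, 458 kept direction and side of the threshold, 28 lost the call, 21 gained it and 3 reversed: miR-27b-3p with library totals only (-0.035), and miR-503-5p with upper-quartile factors (-0.11) and library totals only (-0.44). Depth limits miR-378a-5p most among the members, with between 109 and 330 reads per library.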

Other observations

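Like the members, many brain miRNAs lie inside protein-coding genes. Of the tested miRNAs with a RefSeq mature sequence, 159 had a gene inside a protein-coding gene on the same strand and 255 did not. Without the 4 members, 155 were left, of which 46 rose and 36 fell, or 52.9% called, with a median log2 fold change of -0.22. Among the 255 outside such genes, 64 rose and 81 fell, or 56.9%, with a median of -0.20. The most abundant of the 155 was miR-128-3p, from R3hdm1 and Arpp21, with 212040 ± 34859 versus 341038 ± 98960 CPM for MCAO versus MCAO + rTMS rats (mean ± SD, 3 rats each), with a log2 fold change of 0.69 (adjusted p = 0.036 in edgeR's quasi-likelihood test) that lost its call in 7 of the 17 alternatives. let-7f-5p, with 1 of its genes inside Huwe1, rose with a log2 fold change of 1.33 (adjusted p = 0.00064 in the same edgeR test). miR-26a-5p, inside Ctdspl, had a log2 fold change of -0.32 (adjusted p = 0.130 in the same edgeR test). Messenger RNA of the host genes was not analysed here.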
